A study of Mus musculus with 8 samples.

Results

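The 31 genes described here carry glucose into the cell, break it down to pyruvate and lactate, control the entry of pyruvate into mitochondria, and run the pentose phosphate pathway. They were examined by ATAC-seq, which cuts and tags accessible DNA with a transposase, so that a peak marks a stretch of open chromatin. A peak was counted for a gene when the deposited table names that gene as its nearest. All 31 genes had a peak, with 183 peaks of the 67822 in the table, and 157 of the 183 held enough tags to be tested, against 58135 of all peaks. The remaining 26 peaks entered the sums per gene but no test of their own. The cells were brain macrophages carrying CD11b, labelled as microglia and purified from the forebrain with magnetic beads. One group of 4 libraries came from mice lacking Nlrp3, an inflammasome sensor. These mice are described as Cias1-knockout, named Nlrp3-/-, from Millennium Pharmaceuticals. The other 4 libraries came from wild-type mice, whose genetic background is given as C57BL/6N. The labels give neither age nor sex and do not describe the knockout construct. Nor is it stated that replicate libraries are from separate animals, so p-values measure the spread between these libraries, which may be technical. The series asks what NLRP3 does in microglia through glutamine breakdown, and the comparison asks how open chromatin differs without Nlrp3. Chromatin accessibility is the only measurement used here, and RNA and metabolites were not analysed.

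Glycolysis turns glucose into pyruvate through a fixed chain of enzymes, beginning with hexokinase and ending with pyruvate kinase. Lactate dehydrogenase then makes lactate, which leaves the cell through monocarboxylate transporters, while pyruvate dehydrogenase kinases hold pyruvate back from oxidation in the mitochondria. The pentose phosphate pathway branches off at glucose 6-phosphate and makes NADPH and ribose. Macrophages and microglia are known to raise glycolysis when they are activated, and HIF-1 alpha is a transcription factor well known for switching on these genes, through a short DNA core that reads ACGTG or GCGTG.

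The upstream sequences of 4 members are printed because the Pgk1 promoter was the member peak that differed between the genotypes, and those of Hk2, Pfkfb4 and Hif1a had the highest wild-type levels per kilobase and were not called. Each run is the 250 bases before a RefSeq transcription start, 5' to 3' on the strand of the gene, from the GRCm38.p6 assembly, which corresponds to the mm10 build named for the peak table. Capitals mark ACGTG or GCGTG on either strand, so that a match on the other strand reads CACGT or CACGC. The positions are chrX:106186850-106187099 on the plus strand for Pgk1, chr6:82774455-82774704 on the minus strand for Hk2, chr9:108991652-108991901 on the plus strand for Pfkfb4 and chr12:73907617-73907866 on the plus strand for Hif1a.
Pgk1: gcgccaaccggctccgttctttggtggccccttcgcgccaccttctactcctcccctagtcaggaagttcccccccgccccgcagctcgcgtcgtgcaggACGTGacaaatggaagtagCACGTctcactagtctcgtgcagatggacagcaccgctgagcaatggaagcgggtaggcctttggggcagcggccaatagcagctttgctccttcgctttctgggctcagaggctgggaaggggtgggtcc
Hk2: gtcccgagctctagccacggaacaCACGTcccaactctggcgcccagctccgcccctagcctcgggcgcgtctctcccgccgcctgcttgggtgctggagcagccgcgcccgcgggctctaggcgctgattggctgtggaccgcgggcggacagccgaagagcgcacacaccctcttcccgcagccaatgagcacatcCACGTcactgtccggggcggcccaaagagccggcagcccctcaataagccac
Pfkfb4: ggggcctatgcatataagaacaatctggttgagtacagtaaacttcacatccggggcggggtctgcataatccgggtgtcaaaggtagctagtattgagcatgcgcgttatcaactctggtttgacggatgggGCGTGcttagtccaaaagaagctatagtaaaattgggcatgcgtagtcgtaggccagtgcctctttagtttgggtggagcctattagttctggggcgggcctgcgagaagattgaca
Hif1a: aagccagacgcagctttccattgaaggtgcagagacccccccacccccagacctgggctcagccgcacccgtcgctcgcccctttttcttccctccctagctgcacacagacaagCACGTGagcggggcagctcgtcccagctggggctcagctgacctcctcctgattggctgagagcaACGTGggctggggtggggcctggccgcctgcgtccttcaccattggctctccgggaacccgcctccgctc
The Pgk1 run lies wholly inside its promoter peak and holds 2 matches to ACGTG, 1 on each strand. The Hk2 run also holds 2 matches to ACGTG, both on the other strand, and the Pfkfb4 run holds 1 match to GCGTG. The Hif1a run holds 3 matches to ACGTG, of which 2 overlap in the palindrome CACGTG. Unlike the Pgk1 run, these runs lie only partly inside their promoter peaks, with 154 bases for Hk2, 108 for Pfkfb4 and 175 for Hif1a. The Pfkfb4 match and the Hk2 match further from the start lie outside the peaks. For 29 of the 31 members, the RefSeq window of 250 bases before to 50 after a start overlapped a promoter peak of the same gene. ACGTG stood in 16 of these 29 windows (55.2%), against 27.2% of the 7502 windows of all genes chosen the same way. GCGTG stood in 20 of the 29 (69.0%), against 55.6% of all windows, and 27 of the 29 held at least 1 of the pair (93.1%), against 67.0%. The members had a median of 22 CpG pairs per window, and so did all windows, while the median share of G and C was 65% in the members and 62% in all. The box GGGCGG stood in 75.9% of the members' windows and 70.5% of all, CCAAT in 51.7% and 40.9%, and TATAAA in 3.45% and 5.76%, each counted on both strands. These matches are letters in a window, not measured binding sites.

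Libraries differed in how many tags fell in peaks, which sets the precision of every value. Total tags ran from 11325865 to 14301529 in the knockout libraries and from 11872703 to 15521580 in the wild-type libraries. Tags in peaks made up 4.96% to 26.2% of them in the knockout libraries and 9.79% to 17.5% in the wild-type libraries. The median tested member peak held 11 and 9 tags in knockout replicates 1 and 2, 30 and 43 in knockout replicates 3 and 4, and 19 to 28 in the wild-type libraries. Nlrp3 itself matched the labels, since its 2 promoter peaks held 3 tags in the 4 knockout libraries together, against 112 to 149 in each wild-type library. All 12 microglial marker genes had a peak, with summed levels of 2475 to 2721 CPM in the knockout libraries and 2182 to 2499 CPM in the wild-type libraries, where CPM is tags per 1000000, after TMM scaling, relative to all tags in tested peaks for a peak and to all tags in tested gene sums for a gene. Markers of astrocytes summed to 367 to 527 CPM in knockout and 329 to 412 CPM in wild type, and markers of the oligodendrocyte lineage to 427 to 498 CPM in knockout and 401 to 450 CPM in wild type. Endothelial and mural markers summed to 396 to 467 CPM in knockout and 391.7 to 430 CPM in wild type, and border macrophage markers to 292 to 345 CPM in knockout and 258 to 331 CPM in wild type. Neuronal markers summed to 67.3 to 114 CPM in knockout and 76.0 to 87.8 CPM in wild type, and markers of blood leukocytes spread over 59.2 to 265 CPM in knockout and 86.8 to 219 CPM in wild type. The sums cover tested genes only, 12 for microglia, 6 for border macrophages, 2 for blood leukocytes and 5 for each other type. Sums of different cell types are therefore not comparable with each other. No tested marker gene passed the test for a difference, and Gad1, Gad2, Olig2, Sox10, Sox9, Cd3e and Ly6g had no peak. In these bulk samples, fewer cells of a type and less open chromatin per cell cannot be told apart.

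Of the 157 tested member peaks, 1 rose in the knockout and none fell. The peak that rose was the promoter of Pgk1, which encodes phosphoglycerate kinase, an enzyme of lower glycolysis that yields ATP. The test was edgeR's quasi-likelihood test over all 58135 tested peaks at a Benjamini-Hochberg adjusted p under 0.05, by which 0.17% of all tested peaks were called, 0.055% higher and 0.115% lower. Without Pgk1, 0 of 155 peaks were called and 5 had an unadjusted p under 0.05, while 4.83% of all tested peaks had one. With Pgk1 these were 3 higher and 3 lower, against 2.61% of all tested peaks higher and 2.22% lower. The genotypes did not overlap in 2 member peaks with the knockout higher and 3 with the knockout lower, against 1.68% and 1.49% of all tested peaks. A log2 fold change above 0, knockout over wild type, was found in 71 of the 157 peaks, or 45.2%, against 50.5% of all tested peaks. DESeq2 also called none of the peaks other than those of Pgk1, with 2 at an unadjusted p under 0.05, and limma-voom called none, with 7. Summed per gene, 1 of 31 genes rose and none fell, and it was again Pgk1, against 0.213% of all 15476 tested genes called, 0.0775% higher and 0.136% lower. Without Pgk1, 0 of 30 genes were called and 1, Hk3, had an unadjusted p under 0.05, against 5.96% of all genes (3.35% higher and 2.62% lower). DESeq2 gave 1 such gene and limma-voom 2. The genotypes did not overlap in 2 genes, Pgk1 with the knockout higher and Hk3 with the knockout lower, against 3.46% of all tested genes (1.78% higher and 1.67% lower). Of the 31 gene sums, 15 had a log2 fold change above 0, against 50.5% of all tested genes. The median log2 fold change was -0.02 over the 157 peaks and the same to 2 decimals without Pgk1, against 0.00 over all tested peaks. It was -0.01 over the 31 gene sums and -0.02 without Pgk1, against 0.00 over all tested genes. The 95% interval of the fold change lay within 1.5-fold of no change for 25 of the 30 genes other than Pgk1, and for 69.2% of all tested genes. These shares are not matched for level, since the 30 genes had a median of 76.1 CPM, against 38.4 CPM over all tested genes. Their median standard error was 0.11, against 0.16.

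**Figure D1:**
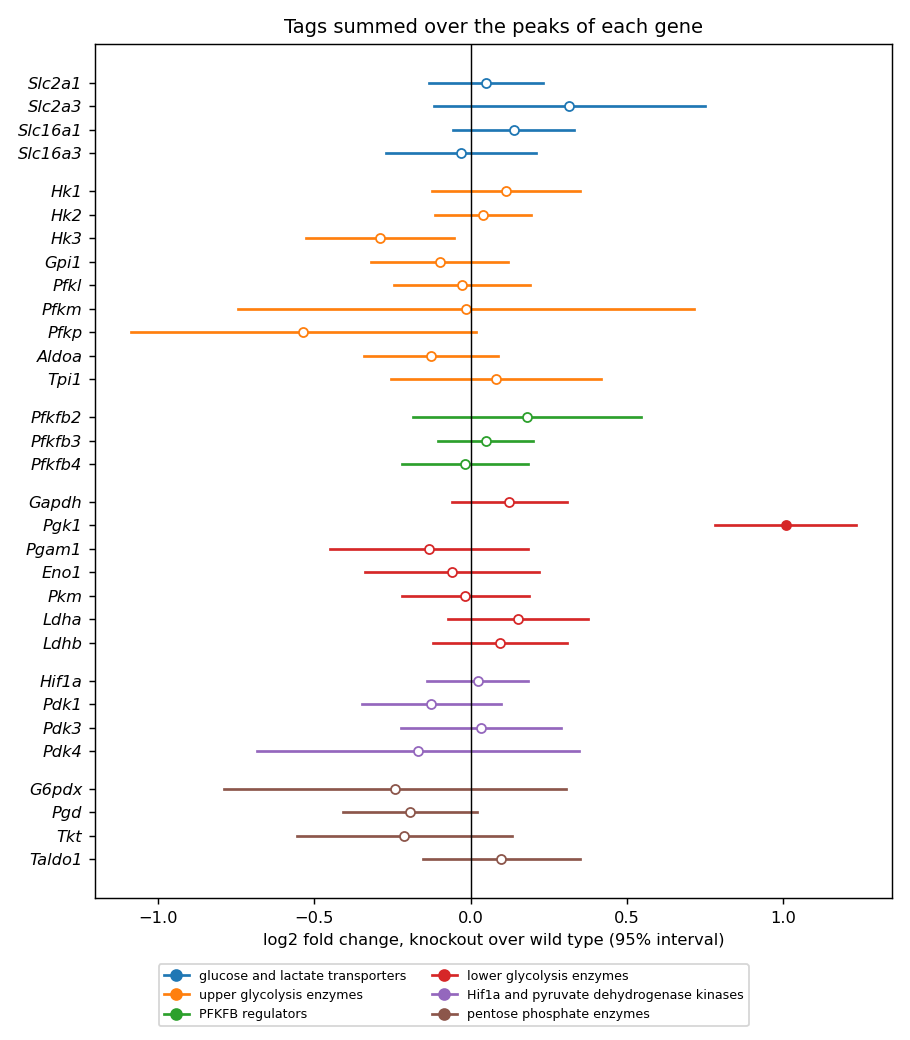
Log2 fold change of tags summed per gene, knockout over wild type, for the 31 genes grouped by role, with points for the fitted value and bars for the 95% interval (4 libraries per genotype). Pgk1, the filled marker, stands at 1.01, and the open markers of the other genes lie between -0.53 and 0.32.

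The Pgk1 promoter peak covered chrX:106186845-106187118. Its level was 103.8, 100.4, 98.8 and 97.0 CPM in knockout replicates 1 to 4, against 46.2, 37.2, 43.8 and 55.4 CPM in wild-type replicates 1 to 4. Every knockout library lay above every wild-type library, and the genotypes failed to overlap, in either direction, in 3.17% of all tested peaks. The deposited tags behind these levels were 86, 68, 225 and 300 in the knockout libraries and 93, 53, 77 and 119 in the wild-type libraries. The mean was 100 ± 2.86 CPM in knockout and 45.7 ± 7.53 CPM in wild type (SD, n = 4 each). The fitted log2 fold change was 1.11 with a standard error of 0.14 (edgeR adjusted p = 3.69e-05), or 2.16-fold with a 95% interval of 1.78 to 2.62. A two-sided exact permutation test over the 8 libraries gave p = 0.0286, the smallest that 4 against 4 libraries can give and the value that any measure without overlap returns. The peak ranked number 15 by p among all tested peaks.

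The difference was also present relative to the other member promoters of the same library, a ratio that again scales the Pgk1 tags to tags in peaks. As a percentage of the tags in the other 39 promoter peaks of the member genes, the Pgk1 promoter held 9.66, 10.0, 9.09 and 8.22 in knockout replicates 1 to 4, against 4.19, 3.29, 3.63 and 4.78 in wild-type replicates 1 to 4. The knockout libraries thus averaged 2.33 times the wild-type share. Per kilobase of peak, the Pgk1 promoter ranked number 1 among the 29 members with a tested promoter peak in every knockout library, against ranks 7, 12, 10 and 4 in wild-type replicates 1 to 4. Over all tags in a library the picture was less even, with 66.2, 47.5, 198.7 and 241.8 Pgk1 promoter tags per 10000000 in knockout replicates 1 to 4, against 78.3, 35.1, 53.8 and 76.7 in wild-type replicates 1 to 4. On this scale the genotypes overlapped, and knockout replicates 1 and 2 were also the libraries with the lowest shares of tags in peaks, at 6.68% and 4.96%. With libraries scaled to all tags in place of tags in peaks, the Pgk1 promoter had a log2 fold change of 1.18 and was not called (edgeR adjusted p = 1).

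The other peaks of Pgk1 gave no call. An intergenic peak upstream, at chrX:106171217-106171433, averaged 4.80 ± 1.42 CPM in knockout and 4.43 ± 1.54 CPM in wild type, with a log2 fold change of -0.02 (edgeR adjusted p = 1). An intron peak at chrX:106195724-106195981 held 4, 5, 7 and 13 tags in the knockout libraries and 11, 7, 3 and 7 in the wild-type libraries, too few to be tested. The promoter held 92.1% of all Pgk1 tags in knockout and 85.1% in wild type. Summed over its 3 peaks, Pgk1 averaged 106.3 ± 6.26 CPM in knockout and 51.6 ± 6.40 CPM in wild type, with a log2 fold change of 1.01 and a standard error of 0.11 (edgeR adjusted p = 1.11e-05). Pgk1 lies on the X chromosome, and the libraries differed in tags on the Y chromosome, with 9, 2, 88 and 1 in knockout replicates 1 to 4 and 9, 13, 201 and 255 in wild-type replicates 1 to 4. With the Y level as a covariate the log2 fold change of the promoter was 1.18 (edgeR adjusted p = 0.000498). The Pgk1 promoter is also a common part of gene-targeting constructs, and tags from a further copy of this sequence and tags from the X-linked locus cannot be told apart in these counts.

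**Figure D2:**
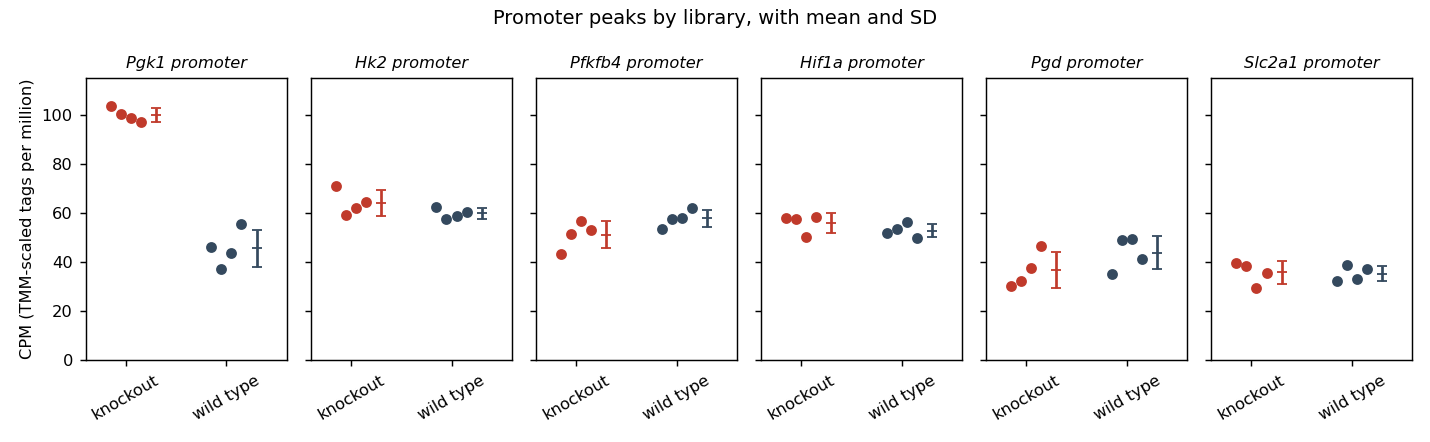
Level in CPM of the promoter peak with the highest CPM in each role group, with 1 point per library, knockout left of wild type, and a bar for the mean and SD of 4 libraries. The 4 knockout points of Pgk1 lie between 97.0 and 103.8 CPM, above its wild-type points at 37.2 to 55.4 CPM, and the other promoters overlap between genotypes.

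Glucose and lactate transporters showed no call, with 0 of 23 tested peaks and 0 of 4 genes past the test. Slc2a1 encodes GLUT1 and Slc2a3 encodes GLUT3, which bring glucose in, and Slc16a1 and Slc16a3 encode MCT1 and MCT4, which carry lactate. Of the 23 peaks, 12 had a log2 fold change above 0 (52.2%), against 50.5% of all tested peaks, and the median was 0.01. The Slc2a1 promoter peak had the highest CPM of the group's promoter peaks, with 39.8, 38.4, 29.4 and 35.6 CPM in the knockout libraries and 32.3, 38.7, 33.0 and 37.3 CPM in the wild-type libraries. The genotypes overlapped throughout, and the log2 fold change was -0.01. The smallest p of the group belonged to an intergenic peak of Slc16a1 at chr3:104670433-104670637, with 7.24, 13.3, 4.83 and 5.50 CPM in the knockout libraries and 4.47, 2.11, 5.69 and 1.86 CPM in the wild-type libraries. Wild-type replicate 3 lay above knockout replicates 3 and 4, and the log2 fold change of 0.88 had a standard error of 0.44 and an unadjusted p of 0.0557 in edgeR's test. Summed per gene, Slc2a1 averaged 164 ± 11.6 CPM in knockout and 157 ± 14.3 CPM in wild type, and Slc16a1 averaged 104 ± 2.25 CPM in knockout and 95.4 ± 7.09 CPM in wild type. Slc16a3 averaged 88.9 ± 10.3 CPM in knockout and 92.8 ± 15.2 CPM in wild type. Slc2a3, which had 4 peaks but no promoter peak, averaged 23.5 ± 5.95 CPM in knockout and 19.5 ± 3.94 CPM in wild type, with a log2 fold change of 0.32 and a standard error of 0.21. Only 1 of its 4 peaks held enough tags to be tested, and that peak had a log2 fold change of 0.01.

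Among the 9 genes of upper glycolysis, which take glucose to the triose phosphates, 0 genes and 0 of 42 tested peaks passed the test. Of the 42 peaks, 15 had a log2 fold change above 0 (35.7%), against 50.5% of all tested peaks. Hexokinase 2, encoded by Hk2, traps glucose as glucose 6-phosphate and had 19 peaks, 18 of them tested. Its promoter held 71.2, 59.1, 61.9 and 64.4 CPM in the knockout libraries and 62.6, 57.6, 58.6 and 60.6 CPM in the wild-type libraries, a log2 fold change of 0.10 with overlap between the genotypes. An intron peak of Hk2 averaged 74.5 CPM in knockout and 70.5 CPM in wild type, and the gene sum averaged 353 ± 22.4 CPM in knockout and 344 ± 19.6 CPM in wild type. The log2 fold changes of the 18 Hk2 peaks ran from -0.38 to 0.61, with 9 above 0. The extremes were a peak starting at chr6:82808058, at 0.61 (unadjusted p = 0.0200), and a peak starting at chr6:82781090, at -0.38 (unadjusted p = 0.0833), in the same edgeR fit, and neither was called.

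Hk3, the hexokinase typical of myeloid cells, was the member gene other than Pgk1 with the smallest p. Its sum over 4 peaks was 57.8, 47.7, 56.3 and 57.2 CPM in the knockout libraries and 71.2, 70.3, 59.6 and 70.7 CPM in the wild-type libraries. Every knockout library lay below every wild-type library, as in 1.67% of all tested genes, and the log2 fold change was -0.29 with a standard error of 0.11 (edgeR unadjusted p = 0.0188, adjusted p = 0.698). All 4 Hk3 peaks had a log2 fold change below 0, from -1.15 to -0.16. The lowest was an exon peak at chr13:55028478-55028723, whose midpoint lies in the body of the neighbouring gene Uimc1 and which was listed from the wild-type peak calls only. It held 6.03, 1.48, 3.95 and 6.47 CPM in the knockout libraries and 4.97, 11.2, 11.4 and 16.8 CPM in the wild-type libraries, so the genotypes overlapped, and its edgeR adjusted p was 0.656. Its mean was 4.48 CPM in knockout and 11.1 CPM in wild type. The Hk3 sum, which includes this peak, averaged 54.8 CPM in knockout and 67.9 CPM in wild type. The other Hk3 peaks had edgeR unadjusted p of 0.368 to 0.427, and the genotypes overlapped in each of them. Once the tags of the exon peak are left out, the Hk3 sums of the genotypes overlap as well, and that sum was not tested.

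Hk1, the hexokinase found in most tissues, averaged 109 ± 21.2 CPM in knockout and 97.4 ± 10.1 CPM in wild type. Aldoa, an aldolase, averaged 98.9 ± 5.74 CPM in knockout and 109 ± 14.1 CPM in wild type, with all of its 4 tested peaks below 0 in log2 fold change. Gpi1, the isomerase of glucose 6-phosphate, averaged 69.9 ± 6.19 CPM in knockout and 76.3 ± 4.09 CPM in wild type. Phosphofructokinase catalyses the committed step, and its liver-type gene Pfkl averaged 69.8 ± 6.69 CPM in knockout and 72.8 ± 3.26 CPM in wild type. The platelet type, Pfkp, averaged 13.8 ± 5.57 CPM in knockout and 17.3 ± 3.48 CPM in wild type, with a log2 fold change of -0.53 and a standard error of 0.27. The muscle type, Pfkm, averaged 7.57 ± 3.30 CPM in knockout and 6.39 ± 1.64 CPM in wild type, but its fitted log2 fold change was -0.01 with a standard error of 0.35. Its tags were 9, 7, 13 and 13 in the knockout libraries and 9, 11, 15 and 13 in the wild-type libraries. Tpi1, triose phosphate isomerase, averaged 44.0 ± 5.67 CPM in knockout and 40.7 ± 10.3 CPM in wild type. Each of these genes overlapped between the genotypes, and none passed the test.

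The PFKFB enzymes make or remove fructose 2,6-bisphosphate, the activator of phosphofructokinase, and none of their 3 genes or 26 tested peaks passed the test. Pfkfb3 had the largest number of peaks of any member, 22, with 20 tested, and its sum averaged 468 ± 26.7 CPM in knockout and 455 ± 30.4 CPM in wild type (log2 fold change 0.05). The member peak with the highest CPM, not divided by width, was its intron peak starting at chr2:11496620, with 116 ± 11.8 CPM in knockout and 105 ± 7.09 CPM in wild type. The 20 tested Pfkfb3 peaks spread from -0.99 to 0.48 in log2 fold change, and the genotypes did not overlap at either end of this range. Among the 26 tested PFKFB peaks, 1 had no overlap with the knockout higher and 1 with the knockout lower. Over all tested peaks these shares were 1.68% and 1.49%. The intron peak starting at chr2:11530142 held 3.62, 4.43, 3.51 and 5.82 CPM in the knockout libraries and 7.46, 11.9, 7.40 and 10.2 CPM in the wild-type libraries. Its log2 fold change was -0.99 with a standard error of 0.33 (edgeR unadjusted p = 0.00626, adjusted p = 0.755). The exon peak starting at chr2:11492405 had a log2 fold change of 0.48 (edgeR unadjusted p = 0.0462). The Pfkfb4 promoter held 43.4, 51.7, 56.6 and 53.1 CPM in the knockout libraries and 53.7, 57.6, 58.1 and 62.0 CPM in the wild-type libraries, a log2 fold change of -0.15 with overlap. Its sum was 114 ± 14.4 CPM in knockout and 116 ± 5.92 CPM in wild type. Pfkfb2, with its single peak, averaged 23.3 ± 2.07 CPM in knockout and 21.02 ± 1.86 CPM in wild type.

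In lower glycolysis, from glyceraldehyde 3-phosphate to lactate, 1 of 7 genes and 1 of 27 tested peaks rose, both of them Pgk1. Without Pgk1, 0 of 6 genes and 0 of 25 peaks passed. Of the 25 peaks, 16 had a log2 fold change above 0 (64%), against 50.5% of all tested peaks. The median was 0.10 over the 25 peaks, against 0.00 over all tested peaks, and 0.04 over the 6 gene sums. Gapdh, the enzyme just before phosphoglycerate kinase, averaged 128 ± 6.64 CPM in knockout and 117 ± 7.63 CPM in wild type, with a log2 fold change of 0.12 and a 95% interval of -0.06 to 0.31. Pgam1, the mutase just after it, averaged 37.9 ± 8.01 CPM in knockout and 43.4 ± 6.49 CPM in wild type, with a log2 fold change of -0.13. Eno1, an enolase, averaged 48.4 ± 4.17 CPM in knockout and 49.0 ± 6.40 CPM in wild type. Pkm, pyruvate kinase, averaged 91.5 ± 6.79 CPM in knockout and 92.7 ± 6.93 CPM in wild type. The lactate dehydrogenase genes followed, with Ldha at 82.0 ± 10.7 CPM in knockout and 76.1 ± 5.70 CPM in wild type, and Ldhb at 93.5 ± 5.48 CPM in knockout and 88.4 ± 11.1 CPM in wild type. For tags summed per gene, the intervals of these 6 genes excluded a rise of the size seen in the Pgk1 sum. The highest upper limit of these sums was 0.37, for Ldha. A sum also holds tags of peaks away from the promoter, and intervals of single peaks were wider. The Ldha peaks starting at chr7:46846950 and chr7:46838159 had upper limits of 1.14 and 1.15, above the 1.11 fitted for the Pgk1 promoter.

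Hif1a and the pyruvate dehydrogenase kinases gave 0 of 4 genes and 0 of 25 tested peaks past the test. The Hif1a promoter held 57.9, 57.6, 50.1 and 58.6 CPM in the knockout libraries and 51.7, 53.4, 56.3 and 49.8 CPM in the wild-type libraries, a log2 fold change of 0.08 with overlap. Hif1a had 17 peaks, and its sum averaged 242 ± 7.60 CPM in knockout and 238 ± 20.6 CPM in wild type. The one with the highest CPM was an intergenic peak starting at chr12:73779280, far upstream of the Hif1a start, at 63.9 ± 8.21 CPM in knockout and 69.1 ± 3.88 CPM in wild type. Pdk1 averaged 90.0 ± 5.01 CPM in knockout and 98.7 ± 13.8 CPM in wild type, Pdk3 64.3 ± 6.85 CPM in knockout and 61.7 ± 7.53 CPM in wild type, and Pdk4 17.1 ± 5.77 CPM in knockout and 17.9 ± 4.32 CPM in wild type. The smallest p in this group was at an X-linked peak of Pdk3 starting at chrX:93889751, with 13.3, 10.3, 11.9 and 6.79 CPM in the knockout libraries and 5.47, 7.73, 6.83 and 7.45 CPM in the wild-type libraries. Knockout replicate 4 lay among the wild-type libraries, and the log2 fold change was 0.54 (edgeR unadjusted p = 0.0887).

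For the pentose phosphate enzymes, 0 of 4 genes and 0 of 14 tested peaks passed the test. Of the 14 peaks, 4 had a log2 fold change above 0 (28.6%), against 50.5% of all tested peaks. The median over the 14 peaks was -0.19, against 0.00 over all. Pgd alone supplied 7 of the 14 peaks, with 1 of its 7 above 0. Pgd encodes the second NADPH-producing enzyme of the pathway, and its sum over 7 peaks was 119, 99.8, 150 and 156 CPM in the knockout libraries and 157, 161, 155 and 155 CPM in the wild-type libraries. Knockout replicates 1 and 2, with the lowest shares of tags in peaks, were below the rest, and the log2 fold change of -0.19 had an edgeR unadjusted p of 0.0727. An exon peak of Pgd starting at chr4:149159992 held 8.45, 8.86, 9.22 and 11.6 CPM in the knockout libraries and 12.4, 16.2, 14.8 and 14.9 CPM in the wild-type libraries. The genotypes did not overlap there, and 1.49% of all tested peaks had no overlap with the knockout lower. The log2 fold change of the Pgd exon peak was -0.53 (edgeR unadjusted p = 0.0352, adjusted p = 1). The Pgd promoter held 30.2, 32.5, 37.8 and 46.6 CPM in the knockout libraries and 35.3, 49.2, 49.5 and 41.5 CPM in the wild-type libraries, which overlapped. G6pdx, whose enzyme opens the pathway, had 1 peak, which lies on the X chromosome within the body of Ikbkg, and averaged 8.79 ± 1.40 CPM in knockout and 10.9 ± 2.13 CPM in wild type, with a log2 fold change of -0.24 and a standard error of 0.26. In the non-oxidative branch, Tkt, transketolase, averaged 26.3 ± 4.00 CPM in knockout and 29.6 ± 3.94 CPM in wild type, and Taldo1, transaldolase, averaged 67.0 ± 7.35 CPM in knockout and 61.4 ± 8.81 CPM in wild type.

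**Figure D3:**
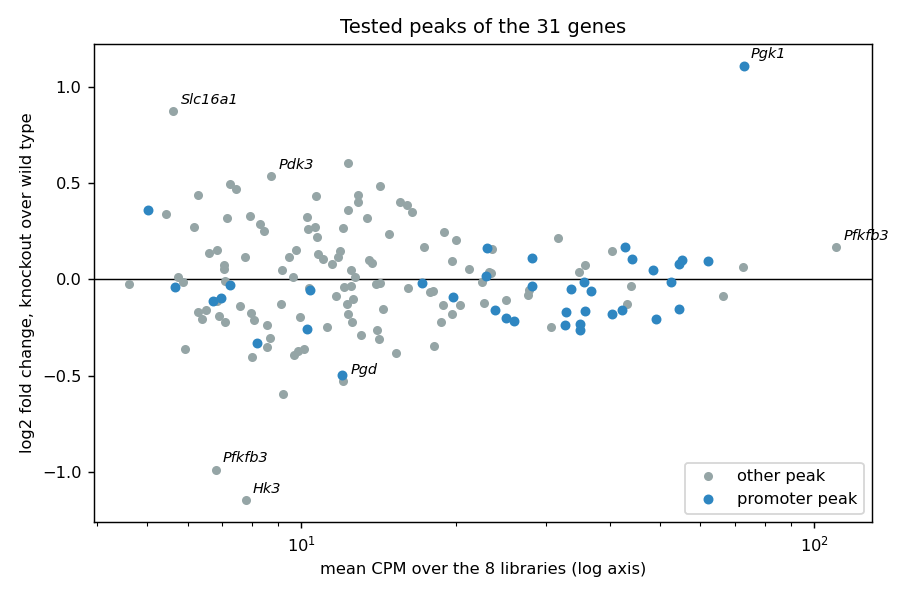
Log2 fold change, knockout over wild type, against the mean level in CPM on a log axis, for the 157 tested member peaks, with promoter peaks in blue and other peaks in grey. The Pgk1 promoter stands alone among the member peaks at 1.11, and the other member peaks lie between -1.15 and 0.88, widest at low levels.

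The 40 promoter peaks made up 21.9% of the 183 member peaks, against 19.5% of all peaks. Of the 38 tested member promoter peaks, 11 had a log2 fold change above 0 (28.9%), with a median of -0.06, and 37.5% of all 12378 tested promoter peaks did, also with a median of -0.06. The single call and the single promoter without overlap among the 38 were Pgk1, against 0.0566% of all tested promoter peaks called and 2.4% without overlap. Of the 119 other member peaks, 60 had a log2 fold change above 0, or 50.4%, with a median of 0.01, against 54.1% and a median of 0.03 over all such peaks. The peak lists the authors merged held 73.2% of the member peaks in both genotypes, 10.4% in the knockout list only and 16.4% in the wild-type list only, against 75.5%, 8.18% and 16.3% of all peaks. For 25 of the 183 peaks (13.7%), the midpoint lay in the body of another gene only, so nearest-gene assignment may not name the gene the peak belongs to. Examples are peaks of Hif1a in Prkch, of Pdk1 in Itga6 and of Slc16a3 in Csnk1d.

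Most member promoters were more open per kilobase than the median promoter in wild-type microglia. Each gene was represented by its tested promoter peak with the highest mean CPM over the 8 libraries, not divided by width. Among 9625 protein-coding genes with such a peak, ranked by its wild-type CPM per kilobase, 20 of 29 members lay above the median and 13 above the 75th percentile. The members' median was 117 CPM per kilobase in wild type, against 70.3 for all these genes. Hk2 stood highest in wild type, at 300 ± 24.2 CPM per kilobase in knockout and 280 ± 10.4 in wild type. Pfkfb4 at 233, Hif1a at 216, Pgam1 at 189 and Aldoa at 175 CPM per kilobase followed in wild type. Pgk1 was close to Hk1 and Pgd in wild type, at 167 ± 27.5 CPM per kilobase, but in knockout it reached 365 ± 10.4, above Hk2. Of the 28 neighbouring pairs in the wild-type order, 6 were further apart than the larger of their SDs, among them Hk2 above Pfkfb4, Pfkfb4 above Hif1a, Hif1a above Pgam1 and Pfkm above Pdk4. The lowest were Pfkm, at 28.3 ± 7.63 CPM per kilobase in wild type, and Pdk4, which encodes a kinase induced by fasting, at 15.4 ± 3.84.

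**Figure D4:**
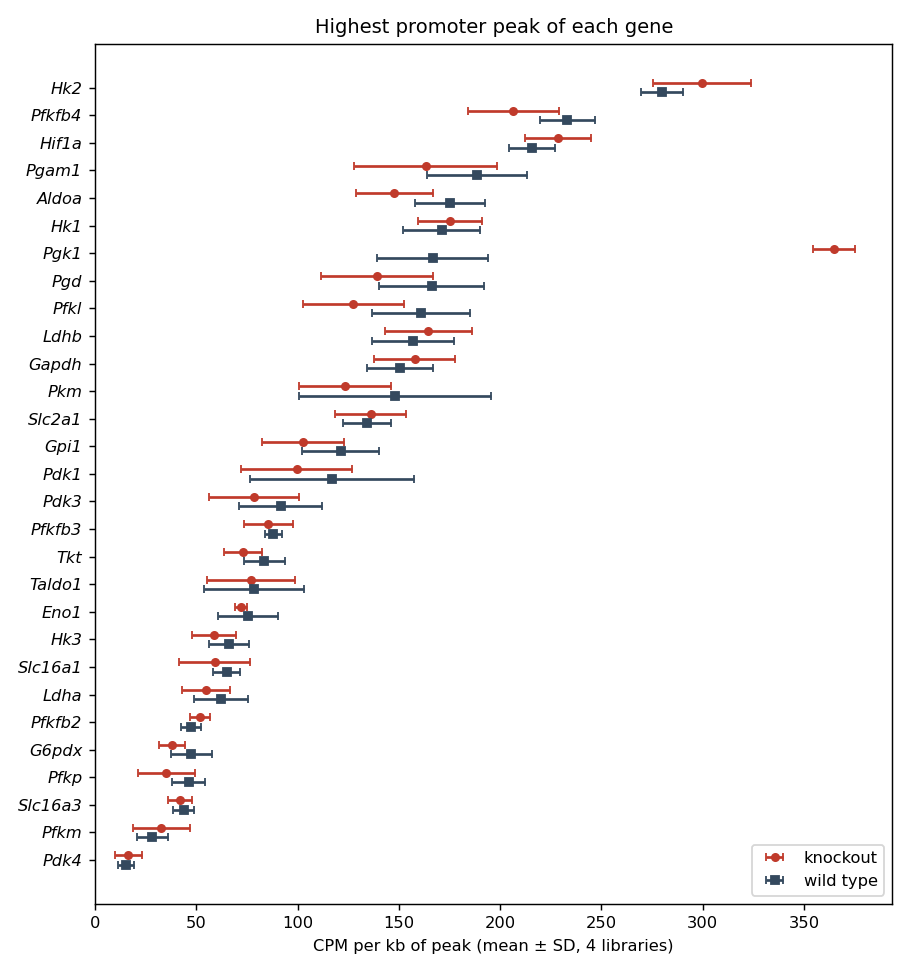
Level in CPM per kilobase of the tested promoter peak with the highest mean CPM, for the 29 member genes that have one. Points and bars are mean and SD over 4 knockout and 4 wild-type libraries, ordered by the wild-type mean. Pgk1 is the promoter whose knockout mean, 365, stands clear of its wild-type mean, 167.

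As a share of all tags in peaks, the member peaks together took 0.295%, 0.292%, 0.305% and 0.308% in knockout replicates 1 to 4 and 0.311%, 0.293%, 0.299% and 0.298% in wild-type replicates 1 to 4. The means were 0.300% ± 0.0079 in knockout and 0.300% ± 0.0074 in wild type (SD, n = 4 each). Without Pgk1 they were 0.289% ± 0.0084 in knockout and 0.295% ± 0.0071 in wild type, a difference smaller than the SD of either genotype.

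The rest of the pathway gave no call. Of 54 further genes of glucose handling, the pentose phosphate pathway and the HIF system, 48 had a peak and were tested, and 0 passed edgeR's test over all genes. At an unadjusted p under 0.05 there were 3 higher and 2 lower, while DESeq2 gave 5 and limma-voom 6 in either direction, and the median log2 fold change was 0.01. Over all tested genes, edgeR gave 3.35% higher and 2.62% lower at that p. The smallest p belonged to H6pd, which makes NADPH from glucose 6-phosphate inside the endoplasmic reticulum, at 159 ± 5.31 CPM in knockout and 191 ± 8.95 CPM in wild type. Every knockout library of H6pd lay below every wild-type library, and the log2 fold change was -0.27 (edgeR unadjusted p = 0.00222, adjusted p = 0.357). Slc2a8, a glucose transporter of internal membranes, averaged 149 CPM in knockout and 125 CPM in wild type, also without overlap, with a log2 fold change of 0.24. These were the 2 of the 48 genes without overlap, and 3.46% of all tested genes had none. The fructose transporter gene Slc2a5 had a log2 fold change of -0.30, Hif3a one of 0.34 and Ldhd one of 0.25.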

How the data were processed

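ATAC-seq tags were available for 4 knockout and 4 wild-type libraries. Per the submitters' processing notes, the authors used Bowtie2, HOMER, DESeq2 and mm10, with no versions given. Per the file headers, peak lists that passed IDR (agreement of peak ranks between replicates) in each genotype were merged, and HOMER annotatePeaks counted tags over each peak at its given size, with at most 3 tags per position. The deposited values used are these raw counts, and the deposited normalized table was not used. Alignment settings and duplicate removal: not given in the sources used here. Tags in sequences repeated elsewhere in the genome may therefore be misplaced.

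Counts were tested with edgeR 4.0.16 (quasi-likelihood test, TMM scaling, filterByExpr with a minimum count of 10, R 4.3.3) over all peaks and over sums per gene, with genotype as the single term, at a Benjamini-Hochberg adjusted p under 0.05. Alternatives were DESeq2 1.42.0, RLE scaling, scaling to all tags, no filter, robust moderation, limma-voom (limma 3.58.1), a replicate block, a Y-chromosome covariate, leaving out each library, and leaving out knockout replicates 1 and 2. The scripts were tested on simulated data. No pair of libraries of the same genotype agreed within sampling noise (chi-square per degree of freedom at least 1.17). Intervals are at 95% and fold changes are knockout over wild type.

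Library values are given for peaks or genes that passed, and in each role group for the peak with the smallest p and the promoter peak with the highest level. A few further peaks at the ends of a gene's range, and the Hk3 and Pgd sums, were chosen after their values were seen. The members, role groups and lists of further pathway genes and cell markers were chosen with earlier results of these data known, and the Pgk1 difference was among those results.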

Additional observations from a re-analysis of the deposited data

Results flagged for a closer look

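In 5 of 84 groups of 4 libraries examined (member gene sums and named peaks in each genotype), 1 library lay far from the other 3 by Dixon's criterion, and chance gives about 1 in 20. Knockout replicate 2, the library with the lowest share of tags in peaks (4.96%), was the low one in 3 of them. It had 47.7 CPM for the Hk3 sum, against 56.3 to 57.8 CPM in the other knockout libraries, 20.3 CPM for Pfkfb2, against 24.1 to 24.8 CPM, and 26.04 CPM for Pgam1, against 40.2 to 43.0 CPM. Wild-type replicate 3 was low for the Hk3 sum, at 59.6 CPM, against 70.3 to 71.2 CPM in the other wild-type libraries. Knockout replicate 3 was low for the Hif1a promoter, at 50.1 CPM, against 57.6 to 58.6 CPM in the other knockout libraries.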

How the results depend on the processing

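The Pgk1 promoter passed the threshold in 16 of 17 alternatives and the Pgk1 sum in 16 of 17. Without 1 library, the log2 fold change ran from 1.03 to 1.21 for the promoter (edgeR adjusted p 5.26e-05 to 0.000606) and from 0.95 to 1.07 for the sum (1.48e-05 to 0.000155). The exception was scaling to all tags, where the promoter had 1.18 (adjusted p = 1), the sum 1.06 (adjusted p = 1), and 0 member peaks and 0 member genes were called. The share of tags in peaks spreads over 4.96% to 26.2% in the knockout libraries, and the cause of the lost calls was not tested. On that scale the ratio of the member peaks' share, knockout over wild type, was 1.09 in place of 0.999, and the Slc2a1 and Pgd promoters turned to log2 fold changes of 0.061 and 0.012. The Slc2a1 promoter, at -0.01, ran from -0.059 to 0.079 without 1 library, and was above 0 when knockout replicate 3, wild-type replicate 2 or wild-type replicate 4 was left out. Without Pgk1, no member peak or gene was called under any of the 17 alternatives, with smallest adjusted p of 0.134 and 0.304. The median over member peaks ran from -0.04 to 0.06 and over member genes from -0.02 to 0.08, the upper ends under scaling to all tags, where all tested peaks had a median of 0.09. Of the 31 genes, 19 kept their sign in all 17 alternatives.

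Deviations from the group means correlated at -0.01, 0.10, -0.01 and 0.15 between same-numbered libraries, against -0.13 to 0.09 between libraries of different numbers. Within a genotype these deviations cancel out, so the correlations cannot decide whether the numbers pair the samples, and the labels do not say. With the replicate block, the Pgk1 promoter had 1.11 (adjusted p = 1.71e-05) and the sum 1.01 (adjusted p = 1.38e-05), with 1 member peak and 1 member gene called as before. Low depth limits the smaller peaks: the median tested member peak held 9 tags in knockout replicate 2. Intervals cover the spread between libraries, which may not be separate animals.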
